A study of Mus musculus with 35 samples.

Results

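RNA polymerase II and the factors that travel with it were followed here as a group of 47 genes, out of 24421 genes counted in each library. The members were taken by name and all 47 were present. They are 12 Pol II subunits, 5 PAF1 complex genes, 5 genes for histone chaperones, IWS1 and TFIIS, 7 super elongation complex genes, 2 genes for 7SK proteins, 3 genes for CDK12, CDK13 and their cyclin, 11 Integrator genes and both TFIIF subunits. All 47 passed the filter on low counts in both sets of libraries.

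All cells were immortalized mouse embryonic fibroblasts (iMEFs) with 1 null and 1 floxed allele of Nelfb, so the controls carry the null allele too. Nelfb encodes a subunit of NELF, the complex that holds Pol II shortly after it starts transcription. The 20 population libraries came from cells with a pLenti vector that was empty (EV) or carried WT NELFB, MT194, MT486 or the double mutant DMT, with 2 replicates of each after Ad-Cre and 2 after Ad-GFP, collected on day 7. Ad-Cre is an adenovirus that delivers Cre recombinase and removes the floxed allele, and Ad-GFP is its control. By the study's description, MT194 no longer binds NELFA and NELFC, MT486 no longer binds NELFE, and Δ-C60 lacks the C-terminal end and does not bind NELFE. The 15 other libraries were single-clone lines after Ad-Cre, with 3 lines each of WT, MT194 and MT486 in pLenti and of WT(N48) and Δ-C60 in pBabe. The meaning of N48 was not given in the sources used here. Each line grew from 1 clone, so a difference between lines holds the history of that clone as well as its construct. The populations held 17969149 to 29080007 reads on genes per library and the clones 18413284 to 27816723.

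Pol II is built from a large catalytic subunit, Polr2a, and smaller subunits, a few of which it shares with Pol I and Pol III. Once released from the promoter-proximal pause by the kinase P-TEFb, it is joined by the PAF1 complex, by Supt6 and the FACT chaperone (Supt16 and Ssrp1), and by TFIIS (Tcea1), which restarts stalled polymerase. The super elongation complex brings P-TEFb to the gene, and the 7SK particle, with Larp7 and Mepce, keeps P-TEFb in reserve. CDK12 and CDK13 phosphorylate the C-terminal tail of Polr2a during elongation, while Integrator cleaves the RNA of early-terminating polymerase and of small nuclear RNA genes.

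Nelfb itself was read first as a check of the labels. In EV populations it stood at 46.1 and 39.5 CPM (counts scaled to library size after TMM normalization) with Ad-GFP and at 7.97 and 5.46 CPM with Ad-Cre. With Ad-Cre the levels were 75.9 and 60.5 CPM in WT, 104 and 119 in MT194, 116 and 128 in MT486 and 169 and 208 in DMT, and with Ad-GFP 97.5 and 82.8, 74.0 and 62.1, 92.9 and 78.6, and 73.5 and 61.6 in the same order. Nelfb was thus higher with Ad-Cre than with Ad-GFP in both libraries of MT194, MT486 and DMT, although Ad-Cre removes the floxed allele, and the difference was called in DMT (log2 fold change 1.48, adjusted p = 5.55e-04 by edgeR). With the replicate block it was called also in MT194 (0.71) and MT486 (0.52). Every population with an ectopic construct lay above EV after Ad-Cre. Reads of the construct and of the endogenous gene count alike and were not told apart. Among the clones, Nelfb in the first and the third library labelled WT stood at 10.3 and 15.5 CPM, against their label, while WT clone 2 held 109 CPM. The other 12 clones held 56.3 to 247 CPM. WT clones below are the libraries so labelled. Log2 fold changes of MT194, MT486 and WT(N48) clones against them are given also without those 2 libraries. That leaves only WT clone 2, so no call is read from those fits.

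The cell type label was compared with marker genes. Of 10 fibroblast markers, 9 had a median over 1 CPM in the populations and 8 in the clones. Fn1, for fibronectin, was the most abundant, with a median of 13357 CPM in the populations and 4631 in the clones. None of the 6 epithelial or 4 endothelial markers had a median over 1 CPM in either set. Cd68 was the only hematopoietic marker over that level, and Tubb3 and Map2 were the neural ones. The summed fibroblast markers came to 20524 to 44126 CPM in population libraries, against 7437 to 25667 CPM in clone libraries.

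The members span a wide range of levels. On the scale of median CPM per kb of exon, Ssrp1 was the highest member in the populations at 88.5, followed by Polr2e, a subunit shared by the 3 nuclear polymerases, at 51.4 and Gtf2f1, the large TFIIF subunit, at 40.1. The lowest were Eaf2 at 0.583, Ell3 at 0.595 and Polr2k at 1.67. In the clones the highest were Ssrp1 at 208, Polr2e at 85.8 and Polr2f at 78.8, and the lowest were again Eaf2 at 0.381, Ell3 at 0.486 and Polr2k at 2.44. Polr2k had 15 to 31 reads per population library, so its values carry a large counting error. Exon length counts every annotated exon of a gene, which lowers the level per length of genes with long or rarely used exons.

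**Figure D1:**
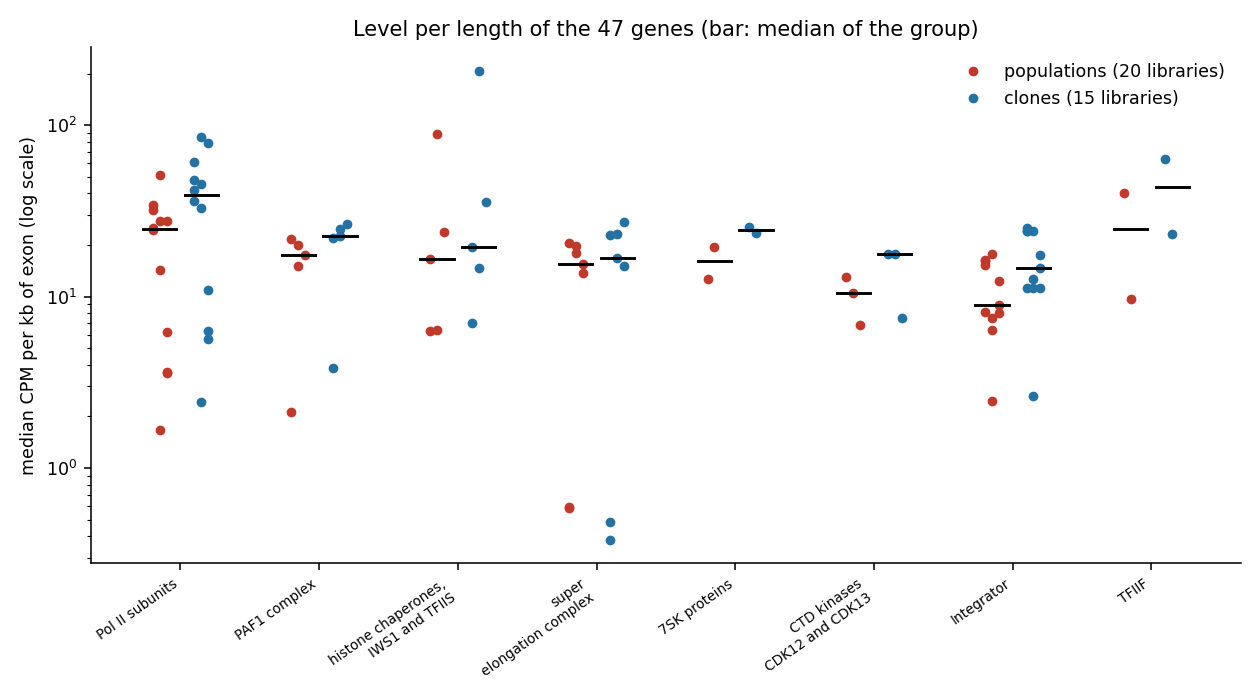
Median CPM per kb of annotated exon on a log scale for each of the 47 genes, by group, in the populations (red, 20 libraries) and the clones (blue, 15 libraries), with a bar at the median of the group. Ssrp1 is the top point in both sets (88.5 and 208), and Eaf2 and Ell3 lie under 1 in both.

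The paralogs within the super elongation complex were used unequally. Ell and Ell2, elongation factors that suppress pausing by Pol II, had 19.8 and 13.7 CPM per kb in the populations, against 0.595 for Ell3. Eaf1, a partner of the ELL proteins, had 15.6 against 0.583 for Eaf2. The scaffolds Aff1 and Aff4 were close to each other at 20.5 and 18.0, and Cdk12 and Cdk13 stood at 10.5 and 6.86. These levels carry the same unmeasured loss of reads. Fewer cells with a transcript and less RNA per cell cannot be told apart in bulk samples.

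Most members varied little across the 20 populations. The median SD of log2 CPM was 0.18 over the members and 0.28 over all 13805 genes tested, and 41 of the 47 members lay under the median of all genes. Ints3, Cdk13 and Iws1, a factor that binds elongating Pol II with Supt6, varied least, with SDs of 0.07, 0.08 and 0.10. At the other end stood Polr2l with 0.68, Eaf1 with 0.38 and Gtf2f2, the small TFIIF subunit, with 0.35. Of the genes tested, 97.0% varied less than Polr2l.

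Deletion of Nelfb in the absence of an ectopic construct was addressed by EV with Ad-Cre against Ad-GFP. Polr2l, a small Pol II subunit that Pol I and Pol III also contain, and Eaf1 rose, and no member fell. A member was called at an adjusted p under 0.05 (quasi-likelihood test of edgeR, adjusted by Benjamini-Hochberg across the table), which 13.0% of 13805 genes passed, so 2 of 47 members is below the background. The median log2 fold change was 0.08 over the members and 0.00 over all genes. The replicate numbers pair the populations, which come from 2 independent experiments, and with the replicate number as a block the call passed for 16 members, 11 higher and 5 lower, against 43.0% of all genes.

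Polr2l (ENSMUSG00000038489) lies on chromosome 7 from 141471860 to 141475132 on the minus strand of mm10, and Eaf1 (ENSMUSG00000021890) on chromosome 14 from 31494399 to 31509858 on the plus strand. Their RefSeq promoters of 300 bases, from 250 bases before the RefSeq start, are printed because these are the members whose levels moved most after Ad-Cre. For Eaf1 the RefSeq start used lies downstream of the start given above, so its window falls inside that span. Capitals mark matches on either strand to the GC box GGGCGG, the CCAAT box, the ETS family motif CCGGAAG, the TATA box TATAAA, the E-box CACGTG, the cAMP response element TGACGTCA and the YY1 motif GCCATNTT. The first is Polr2l on the minus strand, chr7:141475104-141475403, and the second Eaf1 on the plus strand, chr14:31494829-31495128, both in GRCm38.p6.
Polr2l: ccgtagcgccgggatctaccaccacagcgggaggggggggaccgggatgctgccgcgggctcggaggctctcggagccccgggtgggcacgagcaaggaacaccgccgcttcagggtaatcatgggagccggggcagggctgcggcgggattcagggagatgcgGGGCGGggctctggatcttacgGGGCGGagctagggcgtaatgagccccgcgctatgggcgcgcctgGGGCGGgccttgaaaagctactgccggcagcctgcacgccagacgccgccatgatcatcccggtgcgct
Eaf1: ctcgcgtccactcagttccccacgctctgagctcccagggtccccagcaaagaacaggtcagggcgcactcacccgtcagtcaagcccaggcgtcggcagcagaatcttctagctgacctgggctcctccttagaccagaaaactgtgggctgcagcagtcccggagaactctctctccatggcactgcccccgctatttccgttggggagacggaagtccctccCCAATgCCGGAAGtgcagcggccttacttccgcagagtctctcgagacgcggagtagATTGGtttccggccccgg
The Polr2l window held GGGCGG at 3 places and no other of these motifs. The Eaf1 window held CCAAT at 2 places, once on each strand, and CCGGAAG at 1 place, and the marked runs do not overlap. A promoter was available for 36 of the 47 members. GGGCGG was in 24 of those 36 (66.7%) and in 35.9% of all 27025 promoters, CCAAT in 41.7% and 37.9%, and CCGGAAG in 30.6% and 9.12%. TATAAA was in 8.33% of member promoters and 14.2% of all, CACGTG in 11.1% and 7.24%, TGACGTCA in 11.1% and 1.88%, and GCCATNTT in 5.56% and 6.23%. The median GC content was 61.5% in the member promoters and 52.7% in all. These matches describe letters in a window and are not evidence of binding.

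The Polr2l level in EV was 5.60 and 3.22 CPM with Ad-GFP and 13.2 and 9.32 CPM with Ad-Cre, from 114 and 66 against 294 and 198 reads. Both Ad-Cre libraries lay above both Ad-GFP libraries. The log2 fold change was 1.35 (SE 0.29, n = 2 per group, adjusted p = 0.00804 by edgeR). The Eaf1 level was 75.4 and 61.0 CPM with Ad-GFP and 152 and 127 CPM with Ad-Cre, and the groups did not overlap. Its log2 fold change was 1.03 (SE 0.22, adjusted p = 0.00846 by edgeR). Leaving out EV-Cre replicate 1 or EV-GFP replicate 2 ended both calls, with log2 fold changes of 1.07 and 1.01 for Polr2l and 0.89 and 0.89 for Eaf1. Fitted on the EV libraries alone, the adjusted p was 0.112 for Polr2l and 0.0829 for Eaf1 (edgeR).

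The 3 members with the largest negative values did not pass the test. Polr2i, a subunit that helps Pol II correct its errors, was at 6.98 and 6.05 CPM with Ad-GFP and 4.32 and 3.91 with Ad-Cre, a log2 fold change of -0.66 (SE 0.23, adjusted p = 0.0785 by edgeR). Larp7 had -0.50 (SE 0.26) and Ints7, an Integrator subunit, -0.31 (SE 0.13), with adjusted p of 0.243 and 0.149 (edgeR). Among those with positive values, Eaf2 had 0.53 (SE 0.38) at 1.27 CPM and an adjusted p of 0.414 by edgeR. Blocked by replicate, Polr2i (adjusted p = 0.00197), Larp7 (0.0127), Ints7 (0.0246), Ell (0.0215) and Polr2a (0.025) were called lower. Of the 11 called higher under the block, the smallest adjusted p were those of Eaf1 (2.91e-08), Polr2l (5.78e-06) and Supt6 (0.00191). Supt6, a histone chaperone that rebuilds nucleosomes behind Pol II, had a log2 fold change of 0.31 there.

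Polr2a (chromosome 11 from 69733997 to 69758637, minus strand), the subunit that carries the catalytic centre, had 165 and 200 CPM in EV with Ad-GFP and 146 and 157 with Ad-Cre. Its log2 fold change was -0.27 (SE 0.17, adjusted p = 0.353 by edgeR). In the other constructs it was -0.03 in WT, -0.32 in MT194, -0.13 in MT486 and -0.35 in DMT (SE 0.17 in each), with adjusted p of 0.232 or more (edgeR). In the fit with the replicate block, Polr2a was called lower in EV (adjusted p = 0.025), MT194 (0.0202) and DMT (0.00573).

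**Figure D2:**
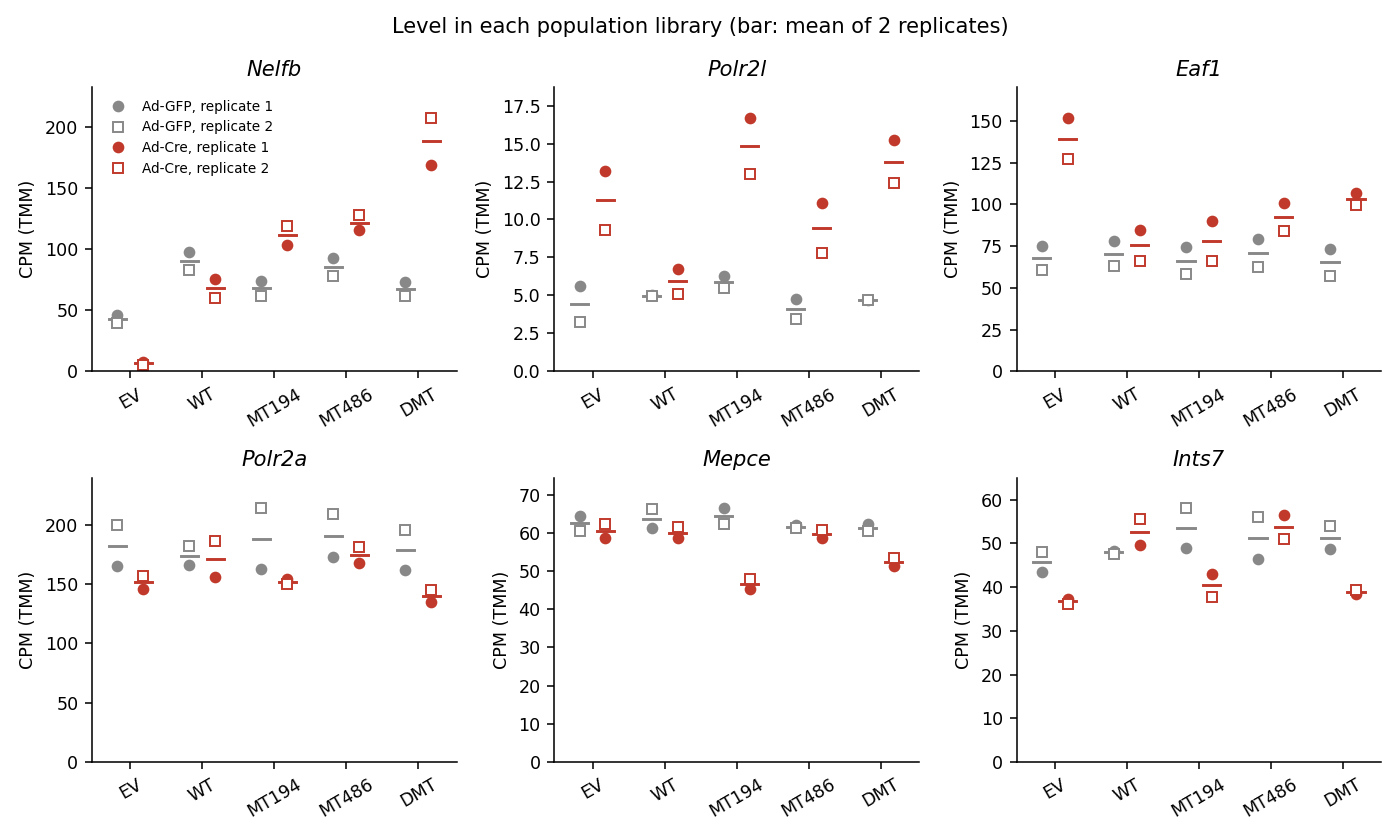
CPM of Nelfb, Polr2l, Eaf1, Polr2a, Mepce and Ints7 in each population library, by construct, with Ad-GFP in grey and Ad-Cre in red, replicate 1 filled and replicate 2 open, and a bar at the mean of 2. Polr2l with Ad-Cre lies above Ad-GFP in EV, MT194, MT486 and DMT (7.81 to 16.7 against 3.22 to 6.30 CPM), and Eaf1 is highest in EV with Ad-Cre (152 and 127 CPM).

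The same contrast in cells with an ectopic construct asks how far each form of NELFB alters the effect of Ad-Cre. In WT no member was called, against 0.0217% of all genes. At an unadjusted p under 0.05 there were 0 members, beside 859 of 13805 genes (edgeR), and DESeq2 called 0 members, beside 81 genes. The member median was 0.11. With the replicate block 5.61% of all genes and again 0 members passed. Polr2l stood at 5.02 and 4.97 CPM with Ad-GFP and 6.75 and 5.10 with Ad-Cre, and Eaf1 at 78.3 and 62.9 against 84.8 and 66.1.

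In MT194, Polr2l rose and Mepce fell, 2 of 47 members against 4.49% of all genes, with a member median of 0.06. Polr2l was at 6.30 and 5.52 CPM with Ad-GFP and 16.7 and 13.0 with Ad-Cre (log2 fold change 1.33, adjusted p = 0.0167 by edgeR). Mepce, the capping methyltransferase of the 7SK RNA, lies on chromosome 5 from 137781906 to 137787655 and had 66.4 and 62.2 CPM with Ad-GFP and 45.3 and 47.8 with Ad-Cre, groups that do not overlap. Its log2 fold change was -0.46 (adjusted p = 0.0183 by edgeR). Leaving out any of the 4 libraries ended the Mepce call (-0.51 to -0.42), and the Polr2l call ended without MT194-Cre replicate 1 (1.14), MT194-GFP replicate 1 (1.43) or MT194-GFP replicate 2 (1.24). Blocked by replicate, 26.7% of all genes and 10 members passed, 6 higher and 4 lower, among them Gtf2f2 (0.61, adjusted p = 0.00107) and Ints7 (-0.40, adjusted p = 0.00895).

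In MT486, Polr2l rose, from 4.74 and 3.47 to 11.1 and 7.81 CPM, and no other member was called, against 2.54% of all genes. Its log2 fold change was 1.20 (adjusted p = 0.0472 by edgeR), a call that ended when any of the 4 libraries was left out (0.92 to 1.45). In the fit with the replicate block, 23.2% of all genes and 5 members passed, all higher: Polr2l, Eaf1, Gtf2f2, Ints1 and Tcea1.

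In DMT, Polr2l rose from 4.68 and 4.72 to 15.2 and 12.4 CPM, and no other member was called, against 10.8% of all genes. The log2 fold change of 1.55 (adjusted p = 0.00392 by edgeR) passed the test in each of 10 alternatives, from 1.40 to 1.69. Eaf1 stood at 73.5 and 57.4 CPM with Ad-GFP and 107 and 99.9 with Ad-Cre, groups that do not overlap. Its adjusted p was 0.0735 by edgeR. DESeq2 called Eaf1 here, as 1 of 6 members, beside 2203 of 13805 genes. With the replicate block 40.7% of all genes and 15 members passed, 11 higher and 4 lower. Those included Leo1, a PAF1 complex subunit, at 0.42, both FACT subunits, Ssrp1 at 0.36 and Supt16 at 0.29, and, lower, Ell at -0.38 and Ints7 at -0.40.

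**Figure D3:**
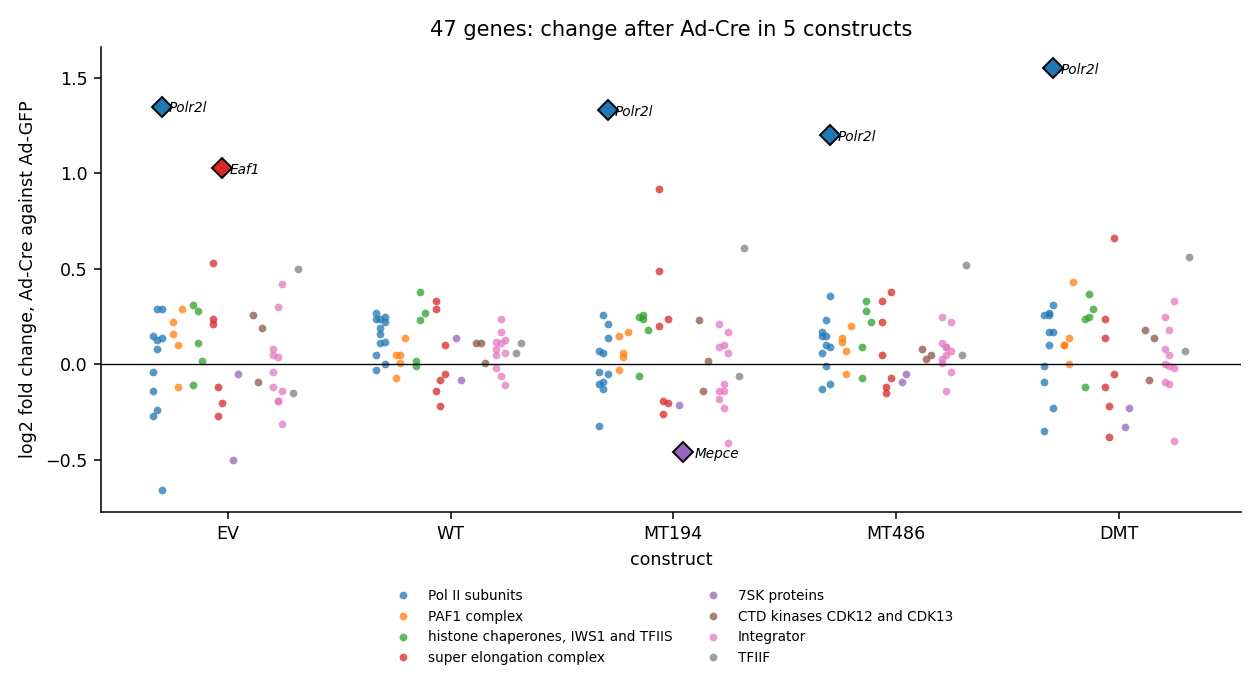
Log2 fold change of each of the 47 genes with Ad-Cre against Ad-GFP in the 5 constructs, coloured by group, with diamonds and names for genes called at an adjusted p under 0.05. Polr2l is called in EV, MT194, MT486 and DMT (1.20 to 1.55), Eaf1 in EV (1.03) and Mepce in MT194 (-0.46), and no gene is called in WT.

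The medians of the effect of Ad-Cre were also taken by group, beside medians over all genes of -0.01 to 0.01 in the 5 constructs. On the log2 scale the 12 Pol II subunits had medians of 0.10 in EV, 0.18 in WT, 0.01 in MT194, 0.12 in MT486 and 0.17 in DMT, and Polr2l was the 1 subunit called by edgeR without the block. With the block, Polr2a, Polr2c and Polr2i were called too in EV, Polr2a and Polr2b in MT194, and Polr2a, Polr2b and Polr2c in DMT, and DESeq2 called Polr2b in MT194 and DMT. The 5 PAF1 complex genes had medians of 0.16, 0.05, 0.06, 0.12 and 0.10 in the same order of constructs, with Ctr9, the scaffold of the complex, between -0.12 and 0.05 and Leo1 between 0.14 and 0.43. None of them was called without the block, by edgeR or by DESeq2, while Leo1 in EV and DMT and Paf1 in EV were called with it. The 11 Integrator genes had medians of -0.04, 0.08, -0.10, 0.07 and 0.00, and their single values ran from -0.41 to 0.42. Ints12 had 0.42 in EV and 0.33 in DMT, and Ints7 -0.31 and -0.40, values that did not pass the test without the block. With the block both genes were called in EV (Ints12 0.41, adjusted p = 0.0126, and Ints7 -0.31, adjusted p = 0.0246, by edgeR) and in DMT (0.33, 0.038, and -0.40, 0.00556), and DESeq2 called Ints7 in MT194 and DMT.

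The paralogs took unequal values. Beside 1.03 for Eaf1 in EV, Eaf2 had 0.53, on 14 to 42 reads per population library. Ell had negative values in all 5 constructs, from -0.38 in DMT to -0.15 in MT486, Ell2 from -0.20 to -0.05, and Ell3 positive ones from 0.14 to 0.92 on 11 to 49 reads per population library. Aff1 ran from -0.14 in WT to 0.24 in EV and DMT, and Aff4 from -0.22 to -0.08. Cdk12 had -0.14 to 0.11 and Cdk13 0.01 to 0.19. Except for Eaf1 in EV, none of these values was called by edgeR without the block. With the block Ell was called lower in EV, MT194 and DMT, Aff1 higher in EV and DMT, Cdk13 higher in EV and Ell3 higher in MT194, and DESeq2 called Ell and Eaf1 in DMT.

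The neighbours of Polr2l and Eaf1 were looked at after the values of both genes had been seen. Tspan4, which starts head to head with Polr2l, had log2 fold changes with Ad-Cre from -0.15 to 0.06 over the 5 constructs, and Cd151 from 0.06 to 0.38, none of them called. Mettl6, which overlaps Eaf1 on the other strand, had 0.05 to 0.40, with the largest in DMT (adjusted p = 0.0797 by edgeR). Of the 9 fibroblast markers tested, 2 were called with Ad-Cre in EV and in DMT, S100a4 (log2 fold changes of -1.47 and -0.84) and Fap (-1.55 and -1.86), both lower. Fn1, the most abundant, was at 8828 and 13754 CPM with Ad-GFP and 13273 and 22194 with Ad-Cre in EV, and at 9439 and 13009 against 13985 and 26336 in DMT, without being called. The summed markers in EV came to 21690 and 31276 CPM with Ad-GFP and 21404 and 33371 with Ad-Cre. Their part in the members' changes was not tested.

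The difference between the effects of Ad-Cre in a construct and in EV was tested directly as an interaction. No member passed it in WT (0.681% of all genes), MT194 (0.00724%), MT486 (0.00724%) or DMT (0.00724%), by edgeR or by DESeq2. At an unadjusted p under 0.05 there were 4, 2, 0 and 0 members, beside 1622, 444, 715 and 159 of 13805 genes (edgeR). DESeq2 called 455, 21, 47 and 1 genes. Nelfb was the gene called by edgeR in the last 3 constructs. Blocked by replicate, 8 members passed in WT against 17.3% of all genes. The log2 difference, WT minus EV, was -0.94 for Eaf1 (adjusted p = 4.09e-05), -1.13 for Polr2l (0.00425), -0.37 for Aff1 (0.0355) and -0.32 for Supt6 (0.0363). It was positive for Polr2i (0.67), Larp7 (0.65), Ints7 (0.44) and Polr2j (0.41). Under the block, Eaf1 was the only member called in MT194 (-0.80, against 0.992% of all genes) and in MT486 (-0.65, against 2.96%), and none was called in DMT (0.00724%).

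After Ad-Cre, cells with a construct were also set against EV directly. The 4 comparisons share the 2 EV libraries, so their values are given side by side. In WT, Eaf1 was lower than in EV and Ints7 higher, 2 of 47 members against 8.0% of all genes. Polr2l had the lowest log2 fold change of the members, -0.93, and was not called by edgeR without the block. DESeq2 called 4 members, Ints7 higher and Eaf1, Polr2l and Supt6 lower, beside 1911 of 13805 genes. Eaf1 was at 84.8 and 66.1 CPM in WT and 152 and 127 in EV (log2 fold change -0.89, adjusted p = 0.0279 by edgeR). Ints7 (chromosome 1 from 191575636 to 191623688) was at 49.5 and 55.5 CPM in WT and 37.3 and 36.1 in EV (0.52, adjusted p = 0.0332 by edgeR). The groups did not overlap for either gene, but leaving out any of the 4 libraries ended both calls (Eaf1 -1.08 to -0.70, Ints7 0.45 to 0.60). In the fit with the replicate block, 40.1% of all genes and 15 members passed, 7 higher and 8 lower. The fibroblast marker S100a4 was higher in WT than in EV (1.58, adjusted p = 0.00252 by edgeR). It was also called in MT486 against EV (1.46, 0.0225) and in the interaction of WT (1.62, 0.0485). Its part in the members' differences was not tested.

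No member was called in MT194 (0.225% of all genes), MT486 (0.362%) or DMT (0.00724%) against EV. At an unadjusted p under 0.05 there were 5, 4 and 0 members, beside 1326, 1676 and 447 of 13805 genes (edgeR), and DESeq2 called 2, 1 and 0 members, beside 302, 516 and 8 genes. Eaf1 had 90.2 and 66.3 CPM in MT194, 101 and 84.3 in MT486 and 107 and 99.9 in DMT, all under the 152 and 127 of EV. With the replicate block Eaf1 was called lower in each of the 3, with log2 fold changes of -0.84, -0.59 and -0.42 and adjusted p of 9.83e-06, 1.47e-04 and 0.0233. The block gave 5 members in MT194 against 13.1% of all genes, 3 in MT486 against 17.9% and 1 in DMT against 0.413%. Ints7 was at 56.4 and 51.0 CPM in MT486, higher than in EV under the block (0.55), and at 38.4 and 39.3 in DMT. Polr2l was at 13.2 and 9.32 CPM in EV, 6.75 and 5.10 in WT, 16.7 and 13.0 in MT194, 11.1 and 7.81 in MT486 and 15.2 and 12.4 in DMT. The log2 fold changes of Polr2a against EV were 0.17 in WT, 0.00 in MT194, 0.21 in MT486 and -0.11 in DMT, with an adjusted p of 0.601 or more (edgeR).

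The comparison with the most called members was that between the replicates. Replicate 2 differed from replicate 1 in 33 of 47 members, 7 higher and 26 lower, against 71.5% of all genes. Of all genes 34.9% were called higher and 36.6% lower. The member median was -0.16 and that of all genes -0.01. The median absolute change was 0.20 over the members and 0.29 over all genes. In MT194 against WT clones, a separate fit, these were 0.32 and 0.36. Scaled by library totals in place of TMM, the median of all genes shifted by -0.18, and the members split into 2 higher and 37 lower with a median of -0.34, against -0.20 for all genes. The 2 replicates are 2 experiments, and what differed between them was not given in the sources used here.

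The smallest adjusted p were those of Polr2j and Tcea1. Polr2j, a small assembly subunit, stood at 28.3 to 35.3 CPM in replicate 1 and 20.3 to 27.5 in replicate 2, and was lower in replicate 2 in 10 of 10 groups (log2 fold change -0.48, adjusted p = 1.96e-08 by edgeR). Tcea1 (-0.51), Polr2d (-0.49), Ell2 (-0.45), Gtf2f2 (-0.44) and Eaf1 (-0.31) followed by adjusted p, from 3.71e-08 to 9.67e-07. Ints2 (0.37) and Ints1 (0.27), both Integrator subunits, were higher in replicate 2, with adjusted p of 3.20e-06 and 3.78e-06. Ints1 kept its direction but not its call when scaled by library totals (0.09, adjusted p = 0.0719). Polr2a was higher in replicate 2 by 0.19 (adjusted p = 5.48e-04) and in 9 of 10 groups.

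By group, and beside 36.6% of all genes lower and 34.9% higher, 8 of 12 Pol II subunits were lower and 2 higher (Polr2a and Polr2k), and 3 of 5 PAF1 complex genes lower and 1 higher. Integrator had 4 of 11 lower and 2 higher, and the super elongation complex 4 of 7 lower and 2 higher. The reads on the members made up 0.291% to 0.344% of gene reads in replicate 1 and 0.219% to 0.284% in replicate 2, lower in 10 of 10 groups. Reads on no gene were higher in replicate 2 in 9 of 10 groups, and ambiguous reads lower in 10 of 10. Of 9 tested fibroblast markers, 6 were called higher in replicate 2, with Col1a1 at 0.71 and Fn1 at 0.66 on the log2 scale, and 1 lower, Vim at -0.23 (adjusted p = 2.93e-04 by edgeR). Among markers of other cell types, Cd68 (hematopoietic, 0.72, adjusted p = 1.21e-06) and Tek (endothelial, 1.40, 0.00763) were called higher too (edgeR). Their part in the members' difference was not tested.

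**Figure D4:**
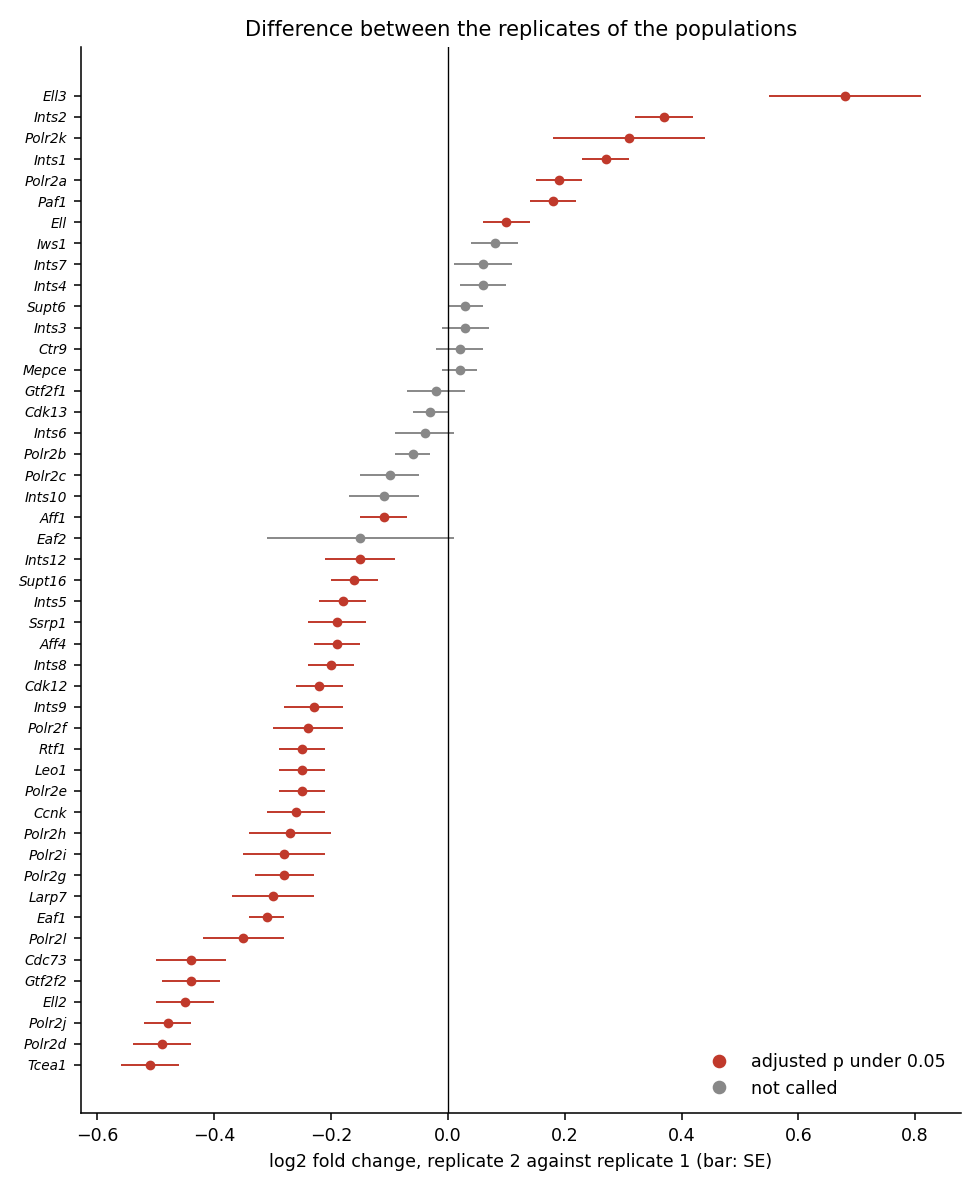
Log2 fold change of replicate 2 against replicate 1 over the 10 population groups for each of the 47 genes, with bars of 1 SE, red where the adjusted p is under 0.05. Of the 33 red points 26 lie left of 0, with Tcea1 the lowest (-0.51), and Ell3 lies farthest right (0.68).

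The single-clone lines held a different level of the members. On a scale set over all 35 libraries, 8 of the 47 members were higher in all 15 clones than in all 20 populations, and 0 were lower in all clones. Over 12432 genes with a median above 1 CPM in either set, 5.93% were higher and 4.86% lower in this way. The 8 members were Polr2b, Polr2f, Polr2h, Rtf1, Ssrp1, Larp7, Gtf2f1 and Gtf2f2. Polr2f, shared by the 3 nuclear polymerases, was at 18.7 to 34.9 CPM in population libraries and at 44.0 to 83.6 CPM in clone libraries. The median log2 ratio was 0.53 over the members and 0.03 over these genes. As a share of gene reads, the members took 0.219% to 0.344% in population libraries and 0.371% to 0.505% in clone libraries. The summed neural markers had a median of 8.26 CPM in the populations and 64.7 in the clones, with Map2 the most abundant in both, the summed fibroblast markers 24512 and 14612 CPM, and reads on no gene 15.4% and 9.99%. Their part in the members' levels was not tested. Populations and clones differ also in selection, time after Ad-Cre and library set, which cannot be told apart, and no test was made.

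Within the clones, Δ-C60 against WT(N48) asks about the loss of the C-terminal end in lines from the same vector. No member was called, and no gene was called at all (0% of 13223) by edgeR's quasi-likelihood test. At an unadjusted p under 0.05 there were 5 members and 1540 genes, and DESeq2 called 0 members and 234 genes. The member median was 0.05 and that of all genes 0.03. The largest differences were those of Eaf2 (1.38, SE 0.46, adjusted p = 0.285) and Ell3 (0.85, SE 0.42, adjusted p = 0.46), both at about 1 CPM. Polr2a had 231, 361 and 201 CPM in Δ-C60 and 329, 339 and 276 in WT(N48), groups that overlap (log2 fold change -0.25, SE 0.35, adjusted p = 0.834).

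MT194 clones against WT clones gave 2 called members, Cdk12 and Supt16, both lower, against 2.91% of all genes. The member median was -0.25 and that of all genes 0.03, and 9 of 47 members had a positive value. Without WT clones 1 and 3 the member median was -0.36, with 8 positive values, and against the WT(N48) clones it was -0.14, with 15. Cdk12 (chromosome 11 from 98203059 to 98278504) stood at 86.7, 115 and 83.9 CPM in MT194 and 153, 141 and 144 in WT. Its log2 fold change was -0.62 (SE 0.15, n = 3 per group, adjusted p = 0.0487 by edgeR). Its paralog Cdk13 was at 55.1, 70.0 and 57.9 against 94.4, 88.9 and 96.3 CPM (-0.61, SE 0.17, adjusted p = 0.0685), and their cyclin Ccnk was at 45.5, 45.9 and 46.5 against 46.3, 55.2 and 53.5 CPM.

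Supt16 (chromosome 14 from 52160414 to 52197416), the large FACT subunit, was at 131, 113 and 140 CPM in MT194 and 245, 185 and 257 in WT, with a log2 fold change of -0.84 (SE 0.21, adjusted p = 0.0488 by edgeR). It overlaps Rpgrip1 on the other strand. The groups did not overlap for Cdk12, Cdk13 or Supt16. Without WT clones 1 and 3, whose Nelfb level goes against their label, Cdk12 had -0.58 and Supt16 -0.55. That fit leaves only WT clone 2, so no call is read from it. Leaving out single clones ended the Supt16 call each time (-0.99 to -0.76) and the Cdk12 call in all but MT194 clone 2, with log2 fold changes of -0.78 to -0.55. Cdk13 had -0.56 without WT clones 1 and 3. Against the WT(N48) clones, Cdk13 was the 1 member called, lower in MT194 by a log2 fold change of -0.95 (adjusted p = 0.0137 by edgeR), against 5.86% of all genes. It was at 142, 122 and 88.3 CPM in WT(N48), above all 3 MT194 clones, while Cdk12 had -0.45 (0.0823) and Supt16 -0.35 (0.304).

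Polr2a had the largest negative value of the members in MT194 clones, -1.03 (SE 0.36, adjusted p = 0.119 by edgeR), from 128, 268 and 116 CPM against 243, 512 and 288. The groups overlap, and clone 2 was the highest in each. Aff1 had a positive value of 0.66 (SE 0.19, adjusted p = 0.0787). Without WT clones 1 and 3 the values were -1.60 for Polr2a and 0.50 for Aff1. Against the WT(N48) clones Polr2a had -0.88 (adjusted p = 0.138 by edgeR) and Aff1 -0.03 (0.948), so the positive value of Aff1 was not seen there. DESeq2 called 8 members in this comparison, 7 lower and 1 higher, including Polr2a, Cdk13 and Aff1, beside 1219 of 13223 genes. The members made up 0.376% to 0.391% of gene reads in the MT194 clones and 0.466% to 0.505% in the WT clones. The summed fibroblast markers were at 12240, 25667 and 13698 CPM in MT194 and 11547, 9996 and 7437 in WT, groups that do not overlap, and their part in the members' difference was not tested.

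**Figure D5:**
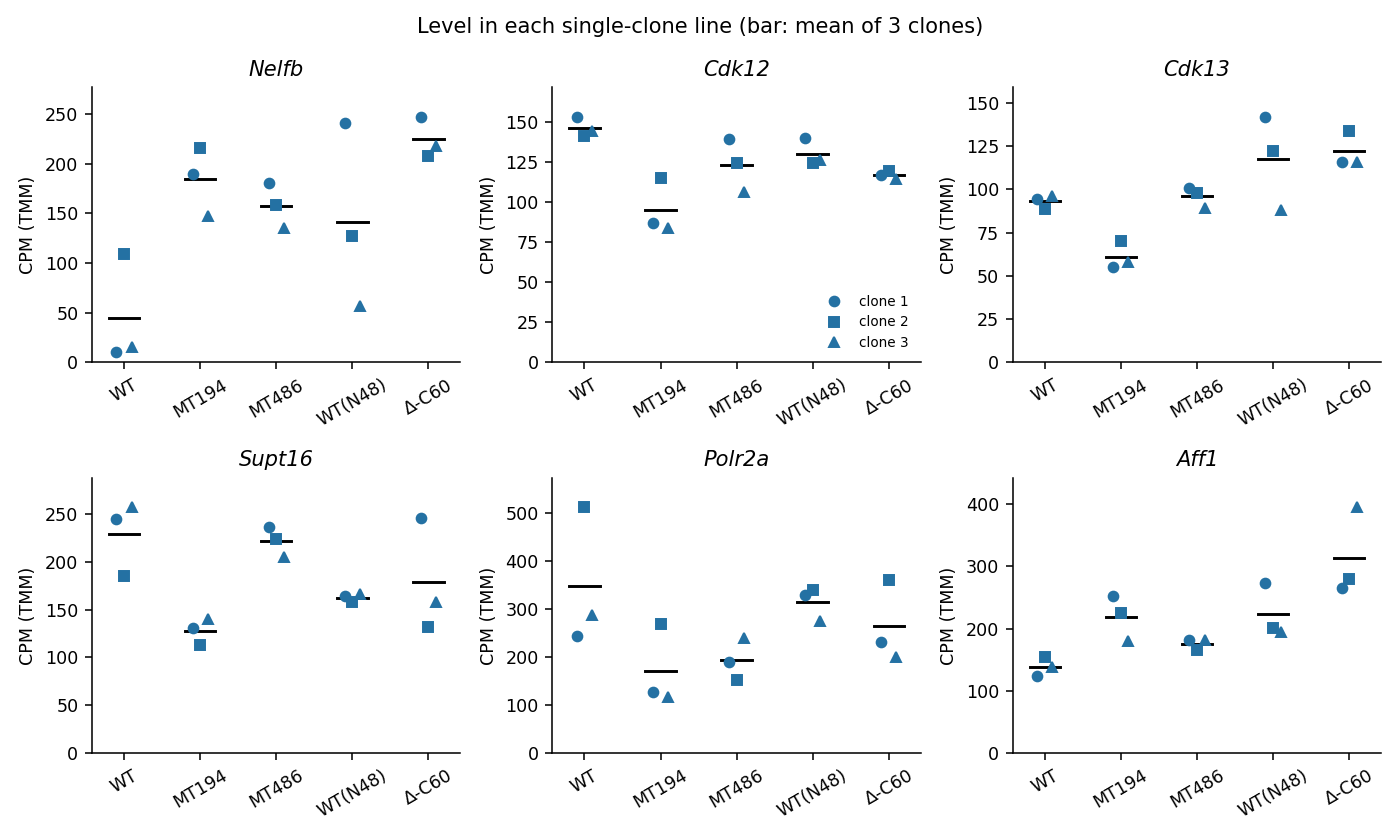
CPM of Nelfb, Cdk12, Cdk13, Supt16, Polr2a and Aff1 in each single-clone line, with circles, squares and triangles for clones 1, 2 and 3 and a bar at the mean of 3. Nelfb is low in WT clones 1 and 3 (10.3 and 15.5 CPM), and Cdk12 and Cdk13 in the MT194 clones lie under all WT clones.

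In the other clone comparisons no member was called. MT486 against WT gave no called gene (0% of 13223) by edgeR, with 3 members and 1176 genes at an unadjusted p under 0.05, and 0 members and 157 genes by DESeq2. Polr2a was at 190, 152 and 240 CPM in MT486, under all WT clones (log2 fold change -0.84, SE 0.35, adjusted p = 0.502, with -1.40 without WT clones 1 and 3 and -0.70 against the WT(N48) clones). Clones labelled WT(N48), in pBabe, against those labelled WT, in pLenti, had 2.10% of all genes called and 0 members by edgeR, with 6 members and 2775 genes at an unadjusted p under 0.05. DESeq2 called 2 members there, Aff1 and Ints10, and 1201 genes. Ints10, an Integrator subunit, had -0.82 (SE 0.21, adjusted p = 0.0586 by edgeR) and Aff1 0.69 (SE 0.19, adjusted p = 0.0761). Polr2a had -0.14 (SE 0.35). Without WT clones 1 and 3, which leaves only WT clone 2, the values in WT(N48) against WT were -0.78 for Ints10, 0.52 for Aff1 and -0.72 for Polr2a. The summed fibroblast markers were at 13166, 12336 and 15143 CPM in MT486 and 25564, 20884 and 16548 in WT(N48). Both groups lay above all WT clones (7437 to 11547 CPM), and the part of these markers in the members' values was not tested.

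Other genes of the transcription machinery were counted by complex, with the same test and no block, beside 13.0% of all genes called in EV, 10.8% in DMT, 4.49% in MT194 and 2.54% in MT486. Blocked calls are not given for these lists, while with the block 43.0% of all genes were called in EV. In EV with Ad-Cre, 3 of 5 Pol I subunits rose, Polr1a (0.59), Polr1b (0.55) and Polr1e (0.82), with a list median of 0.55. In DMT the same 3 rose by 0.55, 0.54 and 0.83. Of 7 DSIF and P-TEFb genes, Cdk9 (0.61) and Ccnt1 (0.55), the kinase and cyclin of P-TEFb, rose in EV. In DMT, Hexim1, which inhibits P-TEFb within the 7SK particle, fell by 0.56. Of 30 Mediator genes, Med26 rose (0.63) and Med1 (-0.40) and Med16 (-0.65) fell in EV. Med16 also fell in MT194 (-0.76), MT486 (-0.72) and DMT (-0.73), where Med1 fell too (-0.53).

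Of 10 Pol III subunits, Polr3e rose in EV (0.55) and Polr3gl fell in DMT (-0.64), and of 25 other general transcription factors Taf1 fell in EV (-0.51). No other Integrator gene and no cleavage or termination factor was called in EV without the block. Rpap1, of 16 other Pol II-associated and assembly factors, fell in DMT (-0.40). Of the other 5 Integrator genes, Asun fell in MT194 (-0.47). In WT against EV after Ad-Cre, Ccnt1 (-0.54), Nabp1 (-0.62), Polr3e (-0.57) and Pcf11 (-0.50), a termination factor, were lower. Among the clones, Polr1a (-0.99), Polr1b (-0.92), Med1 (-0.75) and Asun (-0.86) were lower and Mllt3 (1.23) higher in MT194 than in WT, against 2.91% of all genes. In WT(N48) against WT, Cpsf3l, the catalytic Integrator subunit INTS11 (a mean of 24.8 against 49.5 CPM), Gtf2e2 (-1.11), Med18 (-1.18) and Med8 (-0.74) were lower, against 2.10% of all genes. Leaving out WT clones 1 and 3 leaves only WT clone 2, so no call is read from that fit. In MT194 the log2 fold changes were then -0.91 for Polr1a, -0.99 for Polr1b, -0.80 for Med1, -0.78 for Asun and 1.09 for Mllt3. In WT(N48) they were -0.80 for Cpsf3l, -1.14 for Gtf2e2, -1.02 for Med18 and -0.67 for Med8. Against the WT(N48) clones none of the 5 genes named for MT194 was called there (-0.42, -0.62, -0.44, -0.45 and 0.40 in the same order). The other 3 NELF genes were not called without the block in any comparison of constructs or viruses. Between the replicates, where 36.6% of all genes were lower and 34.9% higher in replicate 2, 22 of 30 Mediator genes were lower and 3 higher (Med12, Med23 and Med24), 16 of 25 other general transcription factors lower and 1 higher, and 14 of 16 Pol II-associated and assembly factors lower and 1 higher. Of 16 cleavage and termination factors 8 were lower and 5 higher (Cpsf1, Cpsf4, Cpsf6, Pcf11 and Wdr33), of 10 Pol III subunits 6 and 2, of 5 Pol I subunits 3 and 1, and of 7 DSIF and P-TEFb genes 4 and 1. Of the other 5 Integrator genes 2 were lower and 0 higher, and of the NELF genes Nelfa (-0.27, adjusted p = 1.09e-05) and Nelfe (-0.33, adjusted p = 4.89e-06) were lower (edgeR).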

How the data were processed

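Poly(A) RNA of 20 populations and 15 single-clone lines was sequenced in 50 bp single reads. The deposited values are raw read counts per gene: the authors used Bowtie2 on mm10, which places no read over an exon junction, dropped reads under mapping quality 30 and counted with HTSeq, whose strand setting and version are not given in the sources used here. The submitters' notes also name SAMtools and DESeq2.

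From these counts, edgeR 4.0.16 (R 4.3.3) gave TMM-normalized CPM and quasi-likelihood tests, separately for the populations (13805 genes after filterByExpr) and the clones (13223), with Benjamini-Hochberg adjustment over all genes tested and a call at an adjusted p under 0.05. CPM was logged with a pseudocount of 0.5 for the SD of each gene. Alternatives were DESeq2 1.42.0, its size factors, library totals, no filter on low counts, a log2 fold change over 0.5, the replicate block, the compared groups alone, other wild-type clones and each library left out. The fits were tested on simulated data with 200 changed genes. Replicate numbers pair the populations, with deviations that correlated over 0.1 in 45 of 45 pairs of groups (0.42 to 0.73), as the paper's 2 independent experiments imply. The replicate block stands beside the member results it moves, such as the 16 members called in EV, but not beside the lists of other transcription genes. The members, lists and tests were chosen with earlier results of these data known. Nelfb in every library, Polr2a in every comparison, the called members (at most 8 a comparison), the extremes of change, level and spread, and the paralogs were named by rule. Gene positions are from GENCODE for GRCm38 and promoters from RefSeq for GRCm38.p6. Of the 47 members, 21 overlap another gene, and without a known strand setting their reads cannot be told apart.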

Additional observations from a re-analysis of the deposited data

Results flagged for a closer look

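Differences between a construct and EV in the effect of Ad-Cre were tested as interactions (edgeR's quasi-likelihood test), and those called for Nelfb or a member are given here. For Nelfb, whose reads include the construct, the log2 difference from EV was 2.27 in WT, 3.38 in MT194, 3.18 in MT486 and 4.15 in DMT, and 2.27, 3.39, 3.19 and 4.16 with the replicate number as a block. No member was called without the block. With it, the effect in WT minus that in EV was -0.94 for Eaf1, -1.13 for Polr2l, -0.37 for Aff1, -0.32 for Supt6, 0.67 for Polr2i, 0.65 for Larp7, 0.44 for Ints7 and 0.41 for Polr2j. With the block, Eaf1 was also called in MT194 (-0.80) and in MT486 (-0.65). Groups held 2 or 3 libraries, too few to look for single outlying libraries.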

How the results depend on the processing

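Refits covered 23 gene values, those of the called members (8 of them between the replicates) and, in EV with Ad-Cre, Polr2i, Larp7, Ints7, Eaf2 and Polr2a. These kept their sign in 230 refits, of which 165 kept their side of the threshold, 61 lost the call and 4 gained it. Of values outside these, Aff1 in MT194 clones turned from 0.66 to -0.03 with the WT(N48) clones as comparator. Positive values there went from 9 to 15 of 47 members, so other members turned as well. Members called without and with the replicate block numbered 2 and 16 in EV with Ad-Cre, 2 and 10 in MT194, 1 and 5 in MT486 and 1 and 15 in DMT. For WT, MT194, MT486 and DMT against EV after Ad-Cre the numbers were 2 and 15, 0 and 5, 0 and 3 and 0 and 1, and for the interactions of WT, MT194 and MT486 0 and 8, 0 and 1 and 0 and 1. Numbers do not pair the clones (3 of 30 correlations over 0.1), and there the block gave 0 members in MT194 against WT in place of 2, with 52 genes in place of 385. DESeq2 called 3 in EV, 5 in MT194, 6 in DMT and 4 in WT against EV, beside 2461, 1128, 2203 and 1911 of 13805 genes, and 2 in MT194 against EV and 1 in MT486 against EV, beside 302 and 516. It called 8 in MT194 clones and 2 in WT(N48) clones, beside 1219 and 1201 of 13223 genes, and these were not refitted by DESeq2 without WT clones 1 and 3. Fitted on the compared groups alone, 0 were called in EV, in MT194, in MT486 and in WT against EV. In that fit 1 each was called in MT194 and WT(N48) clones, beside 4.28% and 4.56% of all genes. Scaled by library totals, 1 was called in EV, 0 each in MT194, in MT486 and in WT against EV. In this scaling 1 each was called in MT194 and WT(N48) clones, beside 2.51% and 2.83% of all genes. Without the low-count filter, 1 was called in MT194, 0 in MT486, 1 in WT against EV and 0 in MT194 clones. With a log2 fold change over 0.5 as well, 1 was called in MT194 and 2 between the replicates. With the other wild-type clones as comparator, 3 members were called in Δ-C60 and 1 in MT194, beside 8.38% and 5.86% of all genes, and Δ-C60 was not refitted without WT clones 1 and 3. Leaving out WT clones 1 and 3, a choice made after seeing the data, leaves only WT clone 2. Only log2 fold changes are therefore read from that fit. Leaving out single libraries gave 0 to 3 calls in EV, 0 to 1 in MT194, 0 in MT486, 0 in WT against EV, 0 to 1 in MT194 clones and 0 to 2 in WT(N48) clones, where the lone library left in a population group was assumed to vary like the others. The shares of all genes called in the refits without single libraries are not given here. A loss of calls among the members can therefore not be told from a loss over all genes. Polr2k had 15 to 31 reads per population library, and the smallest member change called in EV was 1.03 without the block and 0.19 with it.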
